A study of Zea mays with 8 samples.

Results

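The gene expression of the maize inbred lines B73 and Mo17 was compared in immature ears by RNA sequencing. The comparison used 4 of the 8 libraries of the study, 2 titled as parent B73 and 2 titled as parent Mo17. Both inbreds are labelled wild type. The other 4 libraries came from hybrids of the 2 inbreds, of which 2 libraries are wild type at mop1 (WTF1, genotype +/+) and 2 are mutant on both copies (mop1F1, genotype mop1/mop1). The study as a whole concerned CHH methylation and gene expression, per its title, and the inbreds are the parents against which its hybrids are read. The labels give neither the number of plants or ears behind a library nor the size of the ears, so a p-value here speaks only of the variation among these 4 libraries, part of which may be technical.

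B73 is the inbred line of the maize reference genome and belongs to the Stiff Stalk group of breeding lines, whereas Mo17 belongs to the other main group, and their cross is a classic hybrid. The immature ear is the young female inflorescence. Its meristems form rows of spikelets, which later carry the kernels. Maize inbreds are known to differ in the regulatory sequence next to shared genes, in the transposons around them, and in gene content, since some genes of one inbred have no counterpart in another. A difference in a count table can come from any of these.

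The tables list 39498 gene IDs. The IDs numbered 1 to 460 and the IDs that start with GRMZM were left out, because none of them had a count in either Mo17 library, and 39005 IDs were used. Of these, 23288 passed the filter on low counts and were tested. The IDs could not be paired with gene names (0 of 39498 matched the gene table used here), so no gene function is given and the identity of the tissue could not be checked against its marker genes. The 4 libraries held 16582416 to 18511369 counted reads at the IDs used. A gene without a count in a library could still have up to 3 counts, which is 0.162 to 0.181 CPM (counts scaled to a library total of 1000000 at the IDs used), and this limit covers counting error only.

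Per the names of the deposited tables, the B73 reads were mapped to B73 and the Mo17 reads to Mo17. The tested IDs nevertheless carry the name of a B73 release (RefGen_V4) in both inbreds. How Mo17 genes were given these IDs is not stated in the sources used here. A Mo17 gene without such an ID would not be counted. Some shares of reads moved with the inbred. The share of records set aside for low alignment quality was 1.76% and 2.24% in the B73 libraries, against 5.76% and 6.06% in the Mo17 libraries. Unaligned reads made up 2% and 2.88% in B73, against 5.97% and 6.11% in Mo17. Inbred, reference and these shares change together and cannot be told apart, and their part in the differences below was not tested.

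The libraries of an inbred were close to each other. Among 19891 genes expressed in both inbreds, which here means a mean of at least 1 CPM in each, the median difference between 2 libraries was 1.16-fold within B73 and 1.13-fold within Mo17, against 1.31-fold to 1.35-fold between a B73 and a Mo17 library. A difference of more than 2-fold was found between the B73 libraries at 453 genes (2.28%) and between the Mo17 libraries at 614 genes (3.09%). Between the inbreds it was found at 3326 to 3735 genes (16.7% to 18.8%), depending on the pair of libraries. The biological coefficient of variation, which is the spread beyond counting error, was 16.3% in B73 and 14.4% in Mo17 (n = 2 each). It was taken over all tested IDs, not only the genes expressed in both inbreds.

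**Figure D1:**
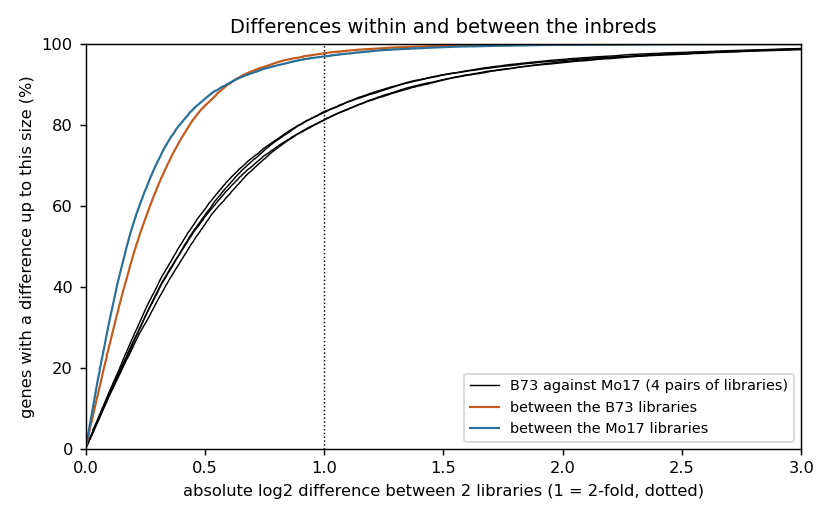
Cumulative share of the genes expressed in both inbreds (y axis, %) by the absolute log2 difference between 2 libraries (x axis), with 1 line per pair of libraries. The B73 and Mo17 lines stay left of the 4 lines between the inbreds; at 2-fold (dotted) 2.28% and 3.09% of genes lie beyond within B73 and within Mo17, and 16.7% to 18.8% between the inbreds.

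Most tested genes were expressed in both inbreds, and a minority of these were called different in level. Of the 19891 genes, 6811 (34.2%) were called different (edgeR quasi-likelihood test, adjusted p below 0.05), 3544 higher and 3267 lower in B73. The share called among all 23288 tested IDs was 39.4%, with 4913 (21.1%) higher and 4261 (18.3%) lower in B73. The difference was at least 2-fold at 2984 genes (15.0%) expressed in both inbreds, at least 4-fold at 726 and at least 8-fold at 206. Over all tested IDs, 23% were called with a difference of at least 2-fold, 14.2% higher and 8.8% lower in B73.

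The direction depended on the size of the difference. Among the called genes that differed by less than 2-fold, 1616 were higher and 2211 lower in B73. From 2-fold upwards the balance was the other way, with 1928 higher and 1056 lower in B73. At 4-fold and more there were 538 higher and 188 lower, and at 8-fold and more 155 higher and 51 lower. The median log2 fold change (B73 over Mo17) was -0.02 over the genes expressed in both inbreds and -0.0046 over all tested IDs, and the quartiles over the genes expressed in both inbreds were -0.37 and 0.41. A minimum of 5 CPM in each inbred left 16379 genes and turned the balance of all calls, with 2659 higher and 2855 lower in B73, while at least 2-fold differences were still more often higher in B73 (1072 against 673).

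**Figure D2:**
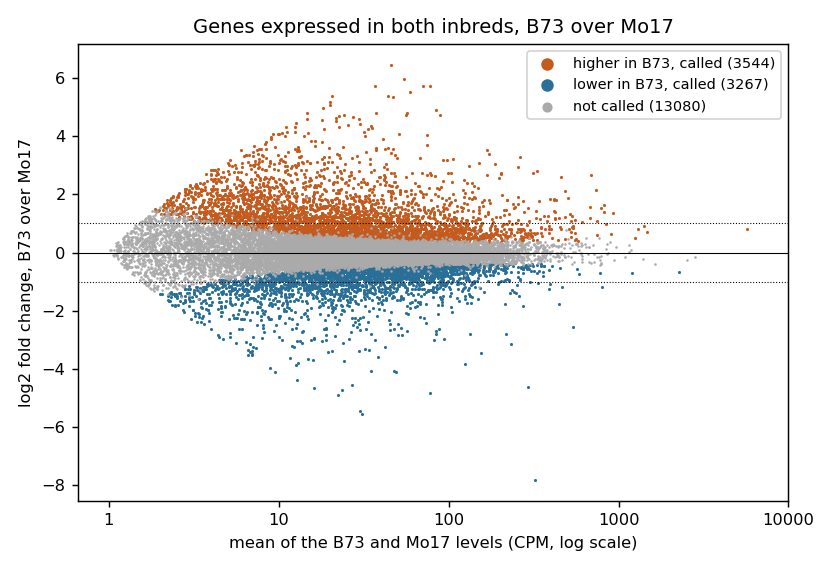
Log2 fold change of B73 over Mo17 (y axis) against the mean of both levels (x axis, CPM on a log scale), 1 dot per gene expressed in both inbreds. Orange dots are the 3544 genes called higher and blue dots the 3267 called lower in B73; grey dots are the 13080 not called, dotted lines mark 2-fold, and the minimum of 1 CPM in each inbred gives the wedge on the left.

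Calls differed by level of expression. Among 2405 genes with a mean of 1 to 5 CPM, 19.9% were called, 323 higher and 155 lower in B73, and only 9 of these calls were of less than 2-fold. Among 5849 genes of 5 to 20 CPM, 36.1% were called, 1250 higher and 861 lower. Among 9288 genes of 20 to 100 CPM, 36.8% were called, and here more were lower (1892) than higher (1525) in B73. Among 2349 genes of 100 CPM or more, 34.3% were called, 446 higher and 359 lower. The share of genes called with at least 2-fold was 19.5%, 22.2%, 10.8% and 8.85% from the lowest to the highest level, so that in strongly expressed genes most calls were small differences. In all 4 bins, at least 2-fold differences were more often higher than lower in B73. The median standard error of the log2 fold change was 0.44 at 1 to 5 CPM and 0.14 at 100 CPM or more.

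**Figure D3:**
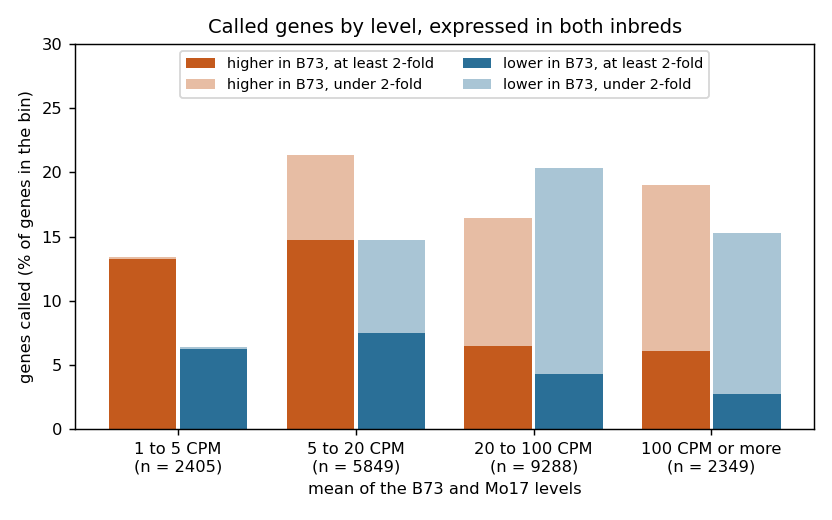
Genes called higher (orange) and lower (blue) in B73 as a percentage of the genes in each bin of mean level (x axis), for genes expressed in both inbreds. Dark parts are differences of at least 2-fold and pale parts smaller ones; the pale blue part is clearly larger than the pale orange one at 20 to 100 CPM, and the dark orange part exceeds the dark blue one in every bin.

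The intervals of the difference separate genes shown to be close in level from genes that were only not called. For 11862 genes (59.6%) expressed in both inbreds, the 95% interval of the log2 fold change lay within -1 and 1, which puts their difference under 2-fold at that confidence for each gene. For 1262 genes (6.34%) it lay wholly beyond, 900 above 1 and 362 below -1. The other 6767 genes (34.0%) could not be placed on either side of 2-fold. Of the 13080 genes not called, 10128 had an interval within -1 and 1. The intervals are not adjusted for the number of genes.

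The most abundant transcripts were largely shared. Of the 100 IDs with the highest mean level in each inbred, 63 were in both lists (63% of each). The B73 list took 9.19% and 9.28% of the reads in the B73 libraries, and the Mo17 list took 7.85% and 8.29% in the Mo17 libraries. Among the 137 IDs in either list, none was at 0 counts in an inbred. Of these IDs, 66 were called different, 49 higher and 17 lower in B73, and 37 differed by at least 2-fold. Entry in a list favours a difference towards that inbred, so these counts describe the lists only.

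The genes with the largest differences were taken from those with at least 5 CPM in each inbred and no overlap between the libraries, which held for 2659 genes called higher and 2854 called lower in B73; over all tested IDs, libraries did not overlap at 72.7%. Zm00001d006010.RefGen_V4 had 1165 and 1473 CPM in the B73 libraries, against 25.8 and 51.6 CPM in the Mo17 libraries. Both B73 libraries stood far above both Mo17 libraries. The log2 fold change was 5.14 ± 0.31 (SE, edgeR, adjusted p = 7.66e-07), or 35.3-fold higher in B73. The level of this gene in the hybrids lay between the inbreds in each library, with 224 and 472 CPM in WTF1 and 526 and 284 CPM in mop1F1. The named genes were picked for large differences, which leave a wide range between the inbreds. Hybrid reads were also mapped to B73, unlike the Mo17 reads, so hybrid levels at these genes are description only. Without Mo17 replicate 2, the Mo17 library with the higher level, the log2 fold change of Zm00001d006010.RefGen_V4 was 5.74.

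Zm00001d036726.RefGen_V4 had 216 and 109 CPM in B73, against 5.79 and 5.67 CPM in Mo17. The B73 libraries differed by almost 2-fold from each other, and both stood far above Mo17. The log2 fold change was 4.88 ± 0.32 (SE, edgeR, adjusted p = 1.41e-06), 29.5-fold higher in B73. Without B73 replicate 1 it was 4.29. All 4 hybrid libraries lay far below B73 at this gene and were spread around the Mo17 level, with 13.9 and 5.41 CPM in WTF1, 20.1 CPM in mop1F1 replicate 1 and no count in mop1F1 replicate 2, which allows up to 0.116 CPM. In a fit that also held the hybrid libraries the log2 fold change of this gene was 4.89, but the call was lost (edgeR, adjusted p = 0.151).

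Zm00001d007937.RefGen_V4 was the gene with the largest decrease by this rule. It had 4.43 and 5.86 CPM in B73, against 173 and 127 CPM in Mo17, and the libraries of each inbred were close. The log2 fold change was -4.82 ± 0.22 (SE, edgeR, adjusted p = 1.2e-07), 28.2-fold lower in B73. The hybrids lay between the inbreds, with 57.8 and 76.7 CPM in WTF1 and 44.1 and 99.4 CPM in mop1F1. Zm00001d031332.RefGen_V4 had 24.7 and 19.6 CPM in B73, against 240 and 884 CPM in Mo17. Its Mo17 libraries were far apart, though both stood above B73. The log2 fold change was -4.61 ± 0.51 (SE, edgeR, adjusted p = 6.22e-05), 24.4-fold lower in B73, and it was -5.25 without Mo17 replicate 1 and -3.37 without Mo17 replicate 2. In the hybrids this gene had 246 and 233 CPM in WTF1 and 278 and 529 CPM in mop1F1.

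**Figure D4:**
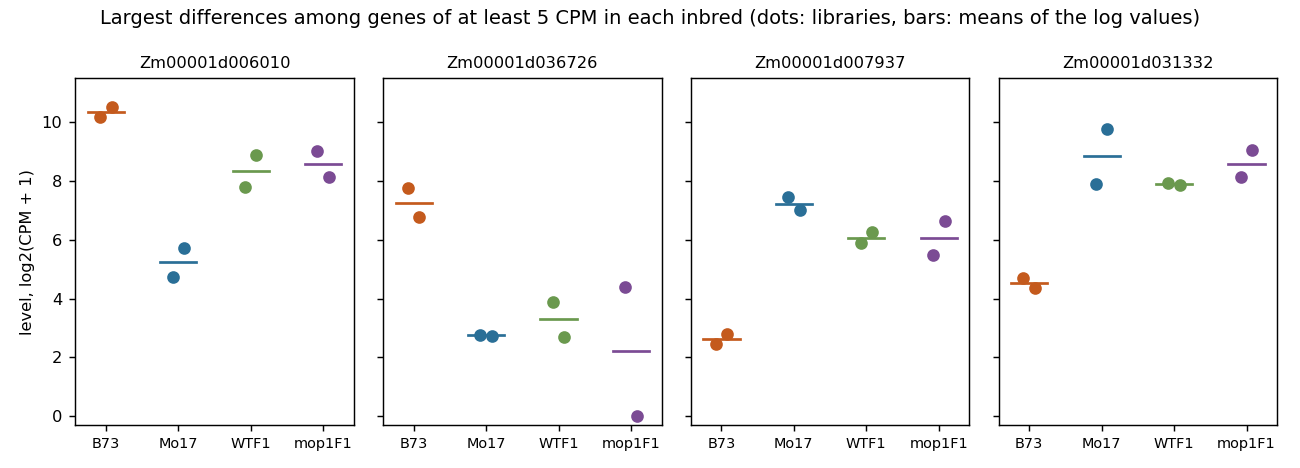
Levels of the 4 genes with the largest differences by the naming rule (y axis, log2 of CPM + 1) in B73, Mo17, WTF1 and mop1F1 (x axis), 1 dot per library with a bar at the mean of the log values. The first 2 genes are higher and the last 2 lower in B73; hybrid libraries lie between the inbreds at Zm00001d006010 and Zm00001d007937.

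A further 2411 tested IDs had counts in both inbreds but fell under 1 CPM in at least one of them. Of these, 1377 were called, 904 higher and 473 lower in B73. The low level in an inbred, together with the filter, leaves mainly genes that differ, so their share of calls describes the filter as much as the genes.

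A group of 986 tested IDs was read in 1 inbred only. In Mo17, 465 tested IDs had 0 counts in both libraries, and in B73 it was 521. These numbers are not a balanced comparison, since a Mo17 gene without a B73 ID would be missing from them. All 986 were called, but such an ID passed the filter only through the inbred in which it was read, so the call follows from the choice and is no separate evidence. The levels in the inbred that had reads were modest. The 465 IDs had a median of 5.39 CPM in B73, with quartiles of 1.73 and 17.5 CPM and a highest value of 459 CPM. The 521 IDs had a median of 3.17 CPM in Mo17, with quartiles of 1.51 and 8.49 CPM and a highest value of 189 CPM. At 10 CPM or more there were 174 IDs in B73 and 117 in Mo17. Set against 3 counts per library in the other inbred, the level was at least 10-fold higher in B73 for 343 of the 465 IDs and at least 10-fold lower in B73 for 363 of the 521.

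A 0 can stand for a gene that is silent or for an ID absent from the annotation used to count that library. In Mo17 it can also stand for a gene missing from the genome, whereas the IDs are those of B73 gene models. Which of these applies was not tested. The hybrid libraries were mapped to B73, like the B73 libraries, per the names of their tables. An ID with counts in a hybrid library was therefore in the annotation used to count that library. Of the 521 IDs without counts in B73, 438 (84.1%) had counts in all 4 hybrid libraries, and 365 (70.1%) had at least 3 counts in each. There were 2 of the 521 without a count in any hybrid library. Of the 465 IDs without counts in Mo17, 411 (88.4%) had counts in all 4 hybrid libraries. Of these 465, 362 (77.8%) had at least 3 counts in each, and 6 had no count in any hybrid library.

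Some IDs without counts in Mo17 were neighbours in number. Gene ID numbers of maize generally follow the order of genes along a chromosome, which was not checked here. Among tested IDs in order of number, 2% were at 0 in Mo17, but after an ID at 0 in Mo17 the next was also at 0 in 8.62% of cases. For IDs at 0 in B73 it was 2.24% and 6.14%. The longest run at 0 in Mo17 held 12 tested IDs, numbered 35400 to 35436, and a run of 5 lay just before it, from 35356 to 35381. Runs of 3 or more held 25 of the 465 IDs at 0 in Mo17. The runs of 12 and of 5 are among them and count towards the 8.62%, and the share without them was not computed. The longest run at 0 in B73 held 3 IDs. These runs were picked because they were the longest, so they carry no test.

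From number 35356 to 35436, 17 of 18 tested IDs had no counts in Mo17. Their mean levels in B73 ranged from 1.24 to 70.1 CPM. The 1 other ID was weak in both inbreds, with 0.594 and 0.0586 CPM in B73 and 0.724 and 0.694 CPM in Mo17 (edgeR, adjusted p = 0.374). Summed over the 17 IDs, the level was 347 and 326 CPM in the B73 libraries and 0 in both Mo17 libraries. In the hybrids the sum was 161 and 132 CPM in WTF1 and 144 and 156 CPM in mop1F1, which is 47.9% and 39.1%, and 42.9% and 46.3%, of the B73 mean. The sums of all 4 hybrid libraries thus lay between the inbreds, at somewhat less than the middle. Over the run of 12 alone they were 37.5% and 30.3% of the B73 mean in WTF1, and 39.9% and 37.0% in mop1F1. Single IDs varied. Number 35405 had 0 to 1.11 CPM in the hybrids, against 6.27 and 6.45 CPM in B73. Number 35401 had 8.47 CPM in mop1F1 replicate 1, against 0.594 and 1.88 CPM in B73. The 17 IDs had counts in every hybrid library with the exception of 1 ID in WTF1 replicate 1. The tested ID just before number 35356 was read in both inbreds, with 217 and 128 CPM in B73 against 7.598 and 6.072 CPM in Mo17. The ID just after number 35436 had 22.3 and 19.8 CPM in B73 against 18.9 and 21.7 CPM in Mo17. Among the 5 tested IDs that followed number 35436, 1 more had no counts in Mo17.

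**Figure D5:**
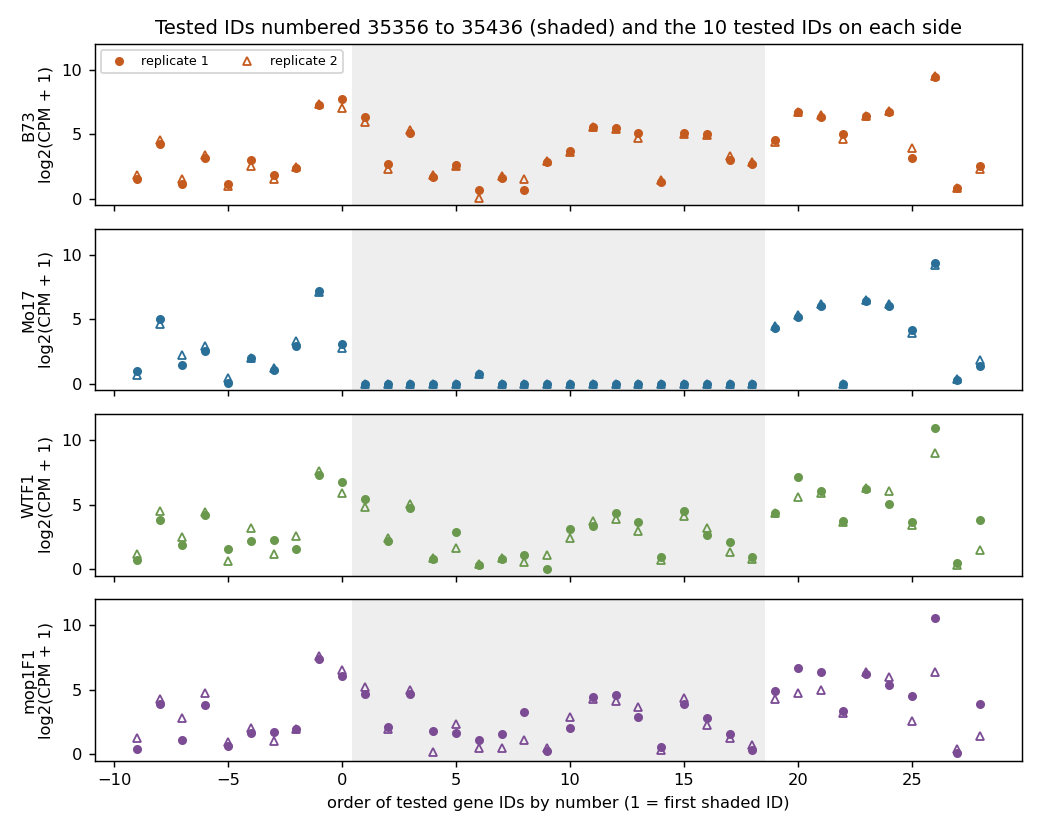
Levels (y axes, log2 of CPM + 1) of the 18 tested IDs numbered 35356 to 35436 (shaded) and of the 10 tested IDs on each side, in order of ID number (x axis), in B73, Mo17, WTF1 and mop1F1; filled circles are replicate 1 and open triangles replicate 2. In Mo17, 17 of the 18 shaded IDs are at 0, while the B73 and hybrid libraries have counts there.

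Genes expressed in both inbreds also had called neighbours, in shorter runs. A gene at least 2-fold higher in B73 was followed by another in 12% of cases, while such genes made up 8.28% of the tested IDs. For genes at least 2-fold lower in B73 it was 7.39% and 4.53%. Runs of 3 or more held 88 of the 1928 higher and 18 of the 1056 lower genes. Members of a gene family that lie side by side can share reads, and their part in these runs was not tested.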

How the data were processed

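Each deposited table holds the raw read counts of 1 library by gene ID, which the authors made with FastQC, Trimmomatic, HISAT2 and HTSeq, per the submitters' processing notes, which also name DESeq2. Not given in the sources used here are versions, aligner options, the annotation release and the strand setting, so overlapping genes cannot be told apart. Titles gave each sample its group and replicate number, also for the B73 library whose title says 2 and whose table's name says 1.

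The 5 summary lines and the left-out IDs stayed out of library sizes and tests. Counts of the 4 parental libraries were fitted alone in edgeR 4.0.16 (R 4.3.3, limma 3.58.1) with filterByExpr by group, TMM scaling (factors 0.972 and 0.992 in B73, 1.02 in both Mo17 libraries), the quasi-likelihood F test and Benjamini-Hochberg adjustment over all tested IDs at 0.05. Fold changes are B73 over Mo17. The SE is the log2 fold change divided by the square root of F. CPM values use the total of the IDs used, without TMM factors; differences between single libraries use the factors. The fit was tested on simulated data. Named IDs, at most 2 per direction, were those with the largest fold change among called IDs of at least 5 CPM in each inbred whose libraries did not overlap. The planned gene lists and tissue markers could not be paired with IDs and were not tested. The groups, lists and rules were chosen with earlier results of these data known. Alternatives were DESeq2 1.42.0 size factors and its Wald test, other filters and minimum levels, TMM on genes expressed in both inbreds, a replicate block, all 8 libraries, the left-out IDs kept, leaving out each library and, added after seeing the data, a test against a 2-fold change.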

Additional observations from a re-analysis of the deposited data

Results flagged for a closer look

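Some signal lay outside the comparison and is given because it stood above the limit that a count of 0 allows. The left-out IDs numbered 1 to 460 took 0.609% and 0.585% of the gene counts in B73 replicates 1 and 2 and none in Mo17; 201 of these 319 IDs had a count in B73. The left-out GRMZM IDs took 10.7 and 6.18 reads of every 1000000 in B73 and none in Mo17.

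The counting step also set reads aside. Reads without a feature made up 5.30% and 4.81% of records in B73, against 5.60% and 5.41% in Mo17. Ambiguous reads made up 1.89% and 2.18% in B73, against 1.59% and 2.35% in Mo17. Low alignment quality set aside 1.76% and 2.24% in B73, against 5.76% and 6.06% in Mo17. Unaligned reads made up 2% and 2.88% in B73, against 5.97% and 6.11% in Mo17. Reads with several alignments made up 2.95% and 2.80% in B73, against 2.94% and 3.10% in Mo17.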

How the results depend on the processing

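Counts of calls moved by more than 1.5 times under 2 alternatives. With all 8 libraries in one fit, 2346 IDs were called in all and 2312 with at least 2-fold. Among genes expressed in both inbreds 950 were called, 618 higher and 332 lower in B73 (65.0% higher, against 52.0% in the fit of the parents alone). Of the 6811 such genes called with the parents alone, 0 changed direction in that fit, and 1 did in the fit without Mo17 replicate 2. The cause of these changes in calls was not tested. A test against a 2-fold change, added after seeing the data, called 3219 IDs, 1293 of them expressed in both inbreds (916 higher and 377 lower in B73), by its construction fewer. Leaving out 1 library gave 7055 to 8180 calls in all, 4828 to 6260 among genes expressed in both inbreds, 1049 to 1203 IDs at 0 in an inbred, and 4729 to 5388 calls of at least 2-fold; of the 6811 genes expressed in both inbreds and called, 1352 to 2191 were no longer called. Size factors, TMM on shared genes, filters, the DESeq2 Wald test (8261 calls), the left-out IDs kept (9334) and minimum levels stayed within 1.5 times. The balance of directions moved somewhat among genes expressed in both inbreds. In these settings 48.2% (minimum of 5 CPM) to 54.3% (TMM on shared genes) of their calls were higher in B73. A replicate block gave 9236 calls, 7002 of them at genes expressed in both inbreds; same-numbered libraries did not deviate together (r = -0.000309 across 19891 genes, which are not independent), and the labels do not pair them. No scaling moved the median of all genes by over 0.1 on the log2 scale. The log2 fold changes of the 4 named genes kept their direction under every alternative run.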
